A study of Homo sapiens with 23 samples.

Results

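Core regions were the places of the genome where almost every library of the series had a ChIP-seq peak, whichever acyl group the antibody recognised. Peaks of the 20 immunoprecipitated libraries on chromosomes 1 to 22 and X were merged wherever they shared 1 bp, and a merged region was kept when at least 19 of the 20 libraries had a peak in it. This left 3072 core regions of 777264 merged (union) regions, or 0.395%, of which 1862 held a peak of all 20 libraries and 1210 of 19. The cells were SW480, a human colorectal cancer cell line, and ChIP-seq sequences the DNA of chromatin fragments that an antibody pulls down. Cells were given 10 mM sodium propionate (NaPr) or 1 mM sodium butyrate (NaBu) for 12 to 16 h, or were left untreated. Propionylation of histone H3 at lysine 18 and of histone H4 at lysine 12 (H3K18pr, H4K12pr) was mapped in NaPr cells, butyrylation (H3K18bu, H4K12bu) in NaBu cells, and acetylation (H3K18ac, H4K12ac) in NaPr, NaBu and untreated cells. Each of these 10 groups had 2 replicates, and 1 input library of chromatin without immunoprecipitation came from each condition. Whether replicates came from separate cultures is not given in the sources used here, so p-values measure the spread between these libraries, which may be technical.

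Acetyl groups on the histone H3 and H4 tails mark active promoters and enhancers, where they loosen the contact of the histone with DNA and are bound by bromodomain proteins. Propionyl and butyryl groups are longer versions of the same modification, made from propionyl-CoA and butyryl-CoA, and the acyltransferases that acetylate histones can place them. In the colon, propionate and butyrate are products of bacterial fibre fermentation, and butyrate is also an inhibitor of histone deacetylases.

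The libraries were unequal in several ways that touch the results. Lists held 8158 (H4K12bu replicate 2) to 208823 peaks (H4K12ac untreated replicate 1), and their depth in reads was not given with the lists. Run tags of the deposited lists split the libraries into 3 sets. One held H3K18pr, H4K12pr and the NaPr input, another the untreated input with H3K18ac and H4K12ac of untreated and NaPr cells, and the last everything from NaBu cells. Where propionyl is compared with acetyl, or NaBu with untreated, the contrast cannot be told apart from these sets. Butyryl libraries share a set with their acetyl counterparts, as do NaPr and untreated acetyl libraries. The tags of the NaBu acetyl lists also read as controls where the sample labels say NaBu, and the labels were followed. In H3K18ac NaPr replicate 1, the lengths that peaks covered in core regions ranked like those of H4K12ac untreated replicates 1 and 2 (Spearman's rho 0.928 and 0.924 across regions) more than those of its own replicate (0.626). Values that moved most without it are given beside the results.

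Core regions are shown first as sequence, because their summits lay at promoters and at distant elements alike. The consensus summit of a region is the median position of the highest-fold summits of the libraries that held it. The following windows of hg38 (plus strand) are 300 bases around the consensus summit of a core region upstream of STK40, a region inside the KRT8 gene, an intergenic region nearest to KRT78, and a region at the microRNA host gene MIR23AHG. They come from the core regions with the highest ranks in every list, and capitals mark a match to one of the 12 motifs described below. The matches were a CCAAT box and an AP-1 site at STK40, a TEAD site near KRT78 and an E-box at MIR23AHG. The KRT8 window held no match, nor did the window at ZNF628, which ranked above STK40 and is not printed.
STK40, chr1:36386237-36386536: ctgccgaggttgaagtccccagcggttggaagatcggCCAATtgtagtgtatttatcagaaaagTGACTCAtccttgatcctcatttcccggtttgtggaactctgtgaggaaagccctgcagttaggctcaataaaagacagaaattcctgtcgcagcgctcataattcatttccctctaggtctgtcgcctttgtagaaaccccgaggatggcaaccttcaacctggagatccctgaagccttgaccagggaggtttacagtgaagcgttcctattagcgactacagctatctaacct
KRT8, chr12:52926926-52927225: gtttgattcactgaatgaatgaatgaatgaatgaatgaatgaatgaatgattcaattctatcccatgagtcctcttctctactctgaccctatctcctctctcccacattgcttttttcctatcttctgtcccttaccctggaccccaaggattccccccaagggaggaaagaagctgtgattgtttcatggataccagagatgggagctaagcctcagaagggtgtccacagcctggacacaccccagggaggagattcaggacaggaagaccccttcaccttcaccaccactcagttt
KRT78, chr12:52873794-52874093: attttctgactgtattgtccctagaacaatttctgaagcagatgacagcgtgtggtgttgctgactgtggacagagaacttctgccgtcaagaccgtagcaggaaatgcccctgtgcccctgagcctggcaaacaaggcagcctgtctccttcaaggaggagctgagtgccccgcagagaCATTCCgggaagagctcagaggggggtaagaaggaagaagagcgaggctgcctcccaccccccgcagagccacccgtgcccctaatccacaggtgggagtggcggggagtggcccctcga
MIR23AHG, chr19:13850776-13851075: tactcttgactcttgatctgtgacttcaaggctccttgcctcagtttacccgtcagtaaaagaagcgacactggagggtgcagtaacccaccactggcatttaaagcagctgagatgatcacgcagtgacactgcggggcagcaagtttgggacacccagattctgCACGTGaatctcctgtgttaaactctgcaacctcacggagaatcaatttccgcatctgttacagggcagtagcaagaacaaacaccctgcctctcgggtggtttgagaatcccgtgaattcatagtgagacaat

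Promoters of 3 genes among the best ranked core regions are shown for motifs whose share was higher at core promoters. Each is the 250 bases before the RefSeq start (GRCh38.p14), written 5′ to 3′ on the strand of the gene, with a match to the ETS, YY1 or CRE letters in capitals. STK40 and DYNC2I2 each held a YY1 match and RPL19 held an ETS match. The consensus summits of the RPL19 and DYNC2I2 core regions, at positions 39200204 of chromosome 17 and 128656929 of chromosome 9, lay inside these stretches. Of the 14 genes at the 12 best ranked promoter regions, 11 had a RefSeq promoter, 5 had an ETS or YY1 match in these bases, and the 3 with no base in an annotated UTR are printed.
STK40, chr1:36385925-36386174, minus strand: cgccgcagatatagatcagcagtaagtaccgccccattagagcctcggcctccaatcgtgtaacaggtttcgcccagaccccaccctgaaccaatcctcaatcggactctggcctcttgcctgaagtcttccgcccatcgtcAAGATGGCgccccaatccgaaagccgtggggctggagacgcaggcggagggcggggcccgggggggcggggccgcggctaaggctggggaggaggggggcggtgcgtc
RPL19, chr17:39200033-39200282, plus strand: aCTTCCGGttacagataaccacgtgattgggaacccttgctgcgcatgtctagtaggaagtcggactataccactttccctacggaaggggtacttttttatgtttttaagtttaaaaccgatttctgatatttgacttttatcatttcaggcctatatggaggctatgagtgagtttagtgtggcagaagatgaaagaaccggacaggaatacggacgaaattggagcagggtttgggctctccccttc
DYNC2I2, chr9:128656848-128657097, minus strand: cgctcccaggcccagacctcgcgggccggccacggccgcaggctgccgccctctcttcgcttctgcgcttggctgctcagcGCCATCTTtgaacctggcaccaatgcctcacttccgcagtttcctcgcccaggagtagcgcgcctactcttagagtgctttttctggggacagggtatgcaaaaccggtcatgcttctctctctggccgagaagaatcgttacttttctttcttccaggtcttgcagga

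A set of 12 motifs, given by their letters, was searched on both strands in a window from 250 bases before to 50 bases after the 5′ end of each protein-coding gene. Common promoter elements were the GC box with the letters GGGCGG, the CCAAT box with CCAAT itself, the TATA box written as TATAAA and the NRF1 site. Sites named after factor families were searched as CCGGAAG for ETS, as TGACGTCA for CRE, as CACGTG for the E-box, as TGAGTCA for AP-1, as ATCAAAG for TCF/LEF, as GGAATG for TEAD, as TGTTTAC for forkhead factors and as AAGATGGC for YY1. No motif contained another. YY1 letters stood in 7.36% of the 1385 promoters with a core region, in 4.18% of the 8922 genes whose best region held 10 to 18 libraries, and in 3.04% of all 19970 promoters. CRE letters stood in 4.98%, 3.02% and 2.29% of these sets. ETS letters stood in 20.6% of promoters with a core region, 18.1% of those in 10 to 18 libraries and 11.9% of all. AP-1 letters stood in 4.98%, 3.28% and 3.99%. The GC box went the other way, with 59.4% at core promoters against 66.7% in 10 to 18 libraries and 52.4% of all, and core promoters had 7.33 CpG per 100 bases (median) against 8.0 and 6.0. These shares are descriptions of letters, with no test.

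**Figure D1:**
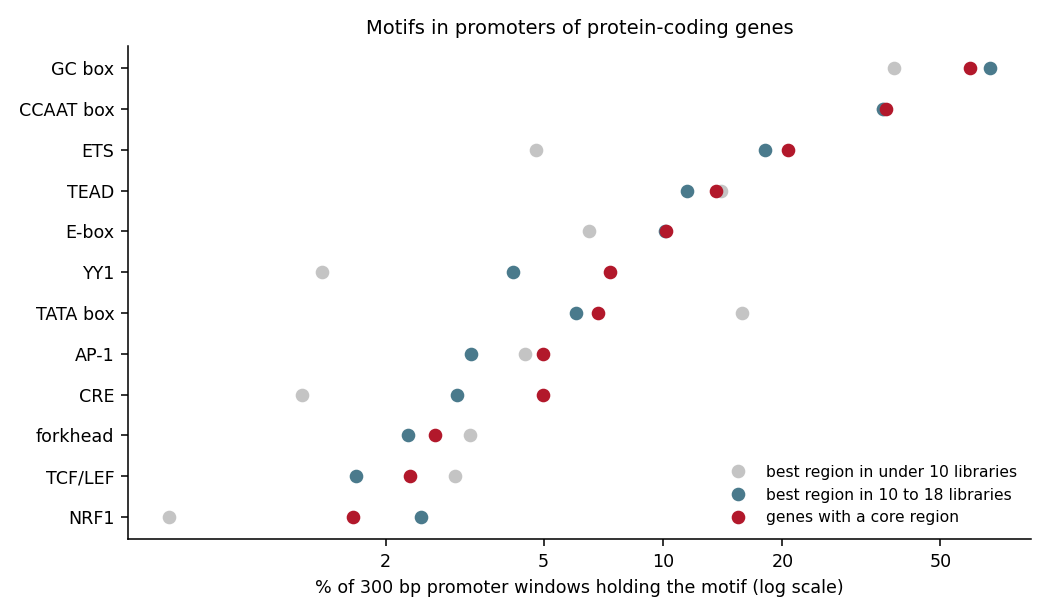
Percentage of 300 bp promoter windows that hold each of 12 motifs (log axis) for protein-coding genes with a core region (n = 1385, red), genes whose best region held 10 to 18 libraries (n = 8922, blue) and genes whose best region held under 10 (n = 9663, grey). YY1 and CRE letters are most frequent at core promoters (7.36% and 4.98%), while the GC box is most frequent in the 10 to 18 library set (66.7%).

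Windows of 300 bases at the strongest summit of each region allowed the core to be set beside other union regions. Of the 3072 strongest summits, 1118 lay within 1 kb of a gene start (GENCODE, coding or lncRNA) and 1954 farther away. Near a gene start, ETS letters stood in 10.1% and YY1 letters in 6.53% of core windows. These shares were 7.96% and 3.03% in the 8745 regions of 10 to 18 libraries near a gene start, and 3.95% and 1.92% in all 31170 such regions outside the core. Farther away the core did not hold more of these letters than regions of 10 to 18 libraries, with 2.25% against 2.43% for ETS and 1.48% against 1.60% for YY1. AP-1 letters stood in 5.48% of the farther core windows, 6.65% of those of 10 to 18 libraries and 5.10% of all farther regions outside the core. The median GC share near a gene start was 57.3% in the core, 63.0% in regions of 10 to 18 libraries and 54.7% in all regions outside the core.

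Membership followed from the peak lists, so the strength and width of core regions are descriptions of what was selected. Of the union regions, 517877 (66.6%) held a peak of 1 library, and the number fell to 1210 at 19 libraries and was 1862 at 20. Core regions had a median width of 4320 bp (quartiles 3131.75 and 6408 bp, range 860 to 54527 bp) against 340 bp over all union regions. They held 7.51% of all peaks (151869 of 2022248) in 4.21% of the merged length. Just inside the threshold, the 1210 regions of 19 libraries had a median width of 3748 bp, lay at a promoter in 45.9% and met an input peak in 47.6%. Just outside it, the 1235 regions of 18 libraries had 3540 bp, 49.4% and 42.8%. The same region could hold separate peaks of different libraries, since overlap of 1 bp chained them, and with 200 bp windows at the summits in place of whole peaks merging anew gave 1078 regions of at least 19 libraries.

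The libraries most often missing from the 1210 regions of 19 included the shortest lists, but not these alone. H4K12bu replicate 2 was the missing one in 494 (40.8%), H4K12bu replicate 1 in 180 (14.9%), H4K12ac NaPr replicate 2 in 148 (12.2%) despite a list of 130360 peaks, H4K12ac NaBu replicate 2 in 111 and H3K18bu replicate 2 in 109. H3K18bu replicate 1, with 22059 peaks, was missing in 9. Both H3K18ac NaBu libraries held all 3072 core regions. Without H4K12bu replicate 2, and with at least 18 of the other 19 libraries, the core had 3839 regions, the largest number when any 1 library was left out, and the smallest was 3056.

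**Figure D2:**
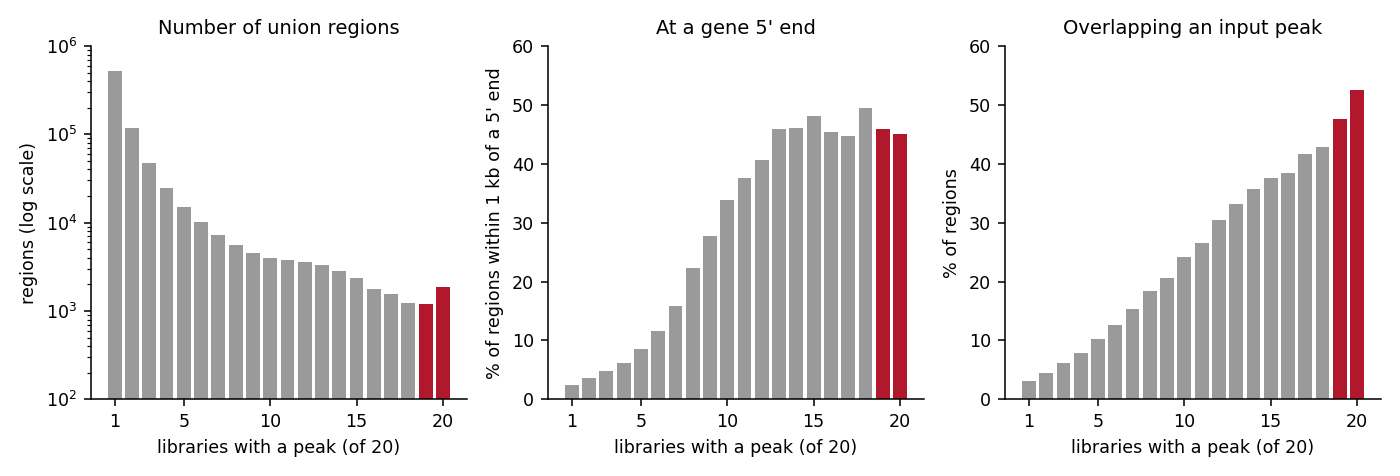
Union regions by the number of libraries with a peak in them (x axis, 1 to 20), with the number of regions on a log axis, the percentage within 1 kb of a gene 5′ end and the percentage that meets an input peak; core regions are red. The promoter percentage stays between 44.8% and 49.4% from 13 libraries on, while the input percentage goes on rising to 52.5% at 20 libraries.

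Promoters held 1395 core regions (45.4%, 95% Wilson interval 43.7% to 47.2%, counting error only), gene bodies 1182 (38.5%) and intergenic sequence 495 (16.1%), where a promoter is the 1 kb on either side of a coding or lncRNA gene's 5′ end. Of all union regions, 4.96% lay at a promoter. The promoter share was already 45.9% in regions of 13 libraries and stood at 42.2% over the 24446 regions of 10 to 18. By width, among regions 4 to 6 kb wide, 39.3% of core regions and 38.6% of regions of 10 to 18 libraries lay at a promoter, and among those 2 to 3 kb wide 54.35% and 41.9%. With the strongest summit in place of the whole region, 36.4% of core regions and 35.8% of regions of 10 to 18 libraries lay at a promoter.

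Of the core promoter regions, 770 lay at the 5′ end of a single gene and 625 at 2 or more, including 267 at 2 or more protein-coding genes. The 1677 core regions elsewhere lay a median of 42954 bp from the nearest protein-coding 5′ end, with 203 within 10 kb and 428 beyond 100 kb. RUNX1, a transcription factor of blood and epithelial development, held 10 core regions over its body of 1216867 bp, more than any other protein-coding gene, though only 2 libraries had a peak at its annotated 5′ end. SEPTIN9, a filament-forming GTPase, held 7 and the membrane protein gene MYOF, the insulin-like growth factor receptor gene IGF1R and the synaptic scaffold gene DLGAP1 held 6 each. SMAD3, a transducer of TGF-β signals, held 5. These counts are given without adjustment for gene length. By a link of at most 10000 bp, chosen after the values were seen, 565 core regions (18.4%) stood in 255 stretches of 2 or more. No share of other union regions under the same link is given here, so this value does not show clustering. The stretches with most members, 5 each, lay at PDGFA, a growth factor gene, and at BBC3, an inducer of apoptosis.

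Among the best ranked core promoters without an input peak, STK40, a kinase-like protein gene, ranked at the 98.0 percentile or higher by fold enrichment in every one of the 20 lists. Fold enrichment is the ratio of fragment pileup to local background at the summit, and ranks within a list are used because the fold depends on depth. At STK40 the highest fold was 29.7 and 16.6 in the H3K18pr replicates, 10.3 and 12.1 in H4K12pr, 10.8 and 13.0 in H3K18bu, and 8.86 and 7.86 in H4K12bu. In the acetyl libraries it was 9.43 and 24.4 (H3K18ac NaPr), 6.49 and 6.14 (H4K12ac NaPr), 32.6 and 24.3 (H3K18ac NaBu), 13.7 and 8.30 (H4K12ac NaBu), 44.2 and 22.6 (H3K18ac untreated), and 10.1 and 11.4 (H4K12ac untreated). All libraries thus placed it near the top of their own lists although the folds themselves spanned 6.14 to 44.2. The summits of the libraries were close together there, with an interquartile range of 30.25 bp.

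The other 11 regions chosen by that rule had a lowest percentile between 94.1 and 98.7. They lay at the zinc finger gene ZNF628, at TARDBP, which encodes the RNA-binding protein TDP-43, at TBRG4, TM9SF4 and RRAS with SCAF1, at FLCN, the folliculin gene of nutrient signalling, at RPL19, a protein of the large ribosomal subunit, and at DYNC2I2, SCYL3, PADI1 and PARD6B. At RPL19 the region spanned 3799 bp (chr17:39198935-39202733), yet the butyryl peaks were short, with 395 and 355 bp in the H3K18bu replicates and 286 and 231 bp in those of H4K12bu. The propionyl peaks there covered 1379 and 1272 bp (H3K18pr) and 2417 and 3395 bp (H4K12pr). Acetyl peaks covered 2921 and 914 bp (H3K18ac NaPr), 805 and 795 bp (H4K12ac NaPr), 1370 and 1177 bp (H3K18ac NaBu), 574 and 473 bp (H4K12ac NaBu), 2025 and 1780 bp (H3K18ac untreated), and 2621 and 3294 bp (H4K12ac untreated). Butyryl peaks were thus the shortest there, below all acetyl peaks of NaBu cells, while summits agreed within an interquartile range of 14.5 bp.

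Away from promoters, the best ranked region lay in the annotated body of KRT8, a keratin of simple epithelia (chr12:52922196-52929572). It ranked at the 98.4 percentile or higher in every list. The length its peaks covered was 6108 and 5152 bp for H3K18pr, 6492 and 4657 bp for H4K12pr, 4371 and 4090 bp for H3K18bu, and 2234 and 1676 bp for H4K12bu. Among acetyl libraries the range was 2232 bp (H4K12ac NaPr replicate 2) to 6548 bp (H3K18ac untreated replicate 1). It held a peak of 1 of the 3 inputs. The others by this rule lay 24852 bp from the 5′ end of KRT78, another keratin gene, within TTC7A, within OGDH, which encodes a subunit of the oxoglutarate dehydrogenase complex, within the protease gene TMPRSS5, and 49207 bp from SLC2A1, the glucose transporter GLUT1. Their lowest percentiles were 97.3 to 98.3.

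The longest core region covered 54527 bp in ACTN4, an actin cross-linker (chr19:38673838-38728364), followed by 44609 bp over SLC2A1, 42504 bp over the tetraspanin gene CD9 and 39440 bp over the lncRNA MALAT1. At ACTN4, H4K12pr peaks covered 53313 and 52540 bp in 6 and 10 pieces and H4K12bu peaks 13445 and 10004 bp in 18 and 13 pieces. The shortest core region, 860 bp on chromosome 1, still ranked at the 83.0 percentile or higher in all 20 lists.

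Of 19970 protein-coding genes, 1385 (6.94%) had a core region within 1 kb of the 5′ end, and of 18756 lncRNA genes 764 (4.07%). Counts for gene lists are read beside these shares, and neighbouring genes could share a region. Among cytosolic ribosomal proteins, 22 of 79 genes (27.8%) had a core region, among them RPL19, RPS3 and RPL23. Splicing factors had 14 of 54 (25.9%), including SF3B1 and the SR proteins SRSF1 and SRSF3. Host lncRNAs of small nucleolar RNAs had 10 of 31 (32.3%), including SNHG3, SNHG4 and ZFAS1, against the lncRNA share of 4.07%. The median number of libraries with a peak at the 5′ end was 16 for ribosomal protein genes and 10 for all protein-coding genes.

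Genes of the AP-1 transcription factor, which responds to growth and stress signals, had a core region in 5 of 14 (35.7%): FOS, FOSL1, FOSL2, JUN and JUNB. The median fold over libraries was 15.7 in the FOS region (7740 bp), and 8.45, 8.38 and 7.12 in those of FOSL2, JUN and JUNB. The FOSL1 region also held the 5′ ends of FIBP and CCDC85B. All 5 met a peak of 1 or 2 inputs. The unfolded protein response of the endoplasmic reticulum had 5 of 20, DDIT3, HERPUD1, HSPA5, SYVN1 and XBP1, with HSPA5 encoding its chaperone BiP and XBP1 and DDIT3 transcription factors. Cytosolic tRNA synthetases had 4 of 20 and short-chain acyl-CoA metabolism 4 of 21 (ETFB, HADHA, HADHB, MCEE), where HADHA and HADHB shared 1 region between them. HOX genes had 9 of 39, in which 4 of the HOXB genes shared a region of 35422 bp. A wide core region can reach a 5′ end at which fewer libraries have a peak. None of the 39 HOX genes and 1 of the 21 acyl-CoA genes had peaks of 19 or more libraries within 1 kb of the 5′ end. Over all protein-coding genes 1038 did, and 1385 had a core region.

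Closer to the background of 6.94% were mitochondrial ribosomal proteins (9 of 78, 11.5%), nuclear genes of oxidative phosphorylation (11 of 79, 13.9%), Mediator (4 of 28), translation initiation factors (6 of 47), the proteasome (5 of 48), DNA replication (3 of 32), replication-dependent histone genes (5 of 68), TGF-β and SMAD genes (2 of 20, BMPR2 and SKIL), Wnt genes (3 of 20, CSNK1A1, GSK3B and LRP5), Krüppel-like factors (2 of 18, KLF3 and KLF6), RNA polymerase II subunits (1 of 12, POLR2A) and cyclins and CDKs (1 of 19, CCND1). Readers of acylated lysine had 3 of 16, BRD2, BRPF1 and TAF1. None of 10 histone acyltransferase genes and none of 18 histone deacetylase and sirtuin genes had a core region, although EP300 had a peak of 13 libraries at its 5′ end, HDAC6 of 18 and HAT1 of 17. With lists this small and a background of 6.94%, these counts are not read as an absence. Olfactory receptors had none of 415, of which 290 had no peak of any library, and taste receptors none of 27.

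Markers of the labelled tissue were partly present. Of 15 colon epithelial markers, 4 (26.7%) had a core region, EPCAM, KRT8, KRT18 and KRT19. CDX2, the intestinal transcription factor, had a peak of 10 libraries, CDX1 of 3, FABP1 of 2 and KRT20 of 1. Of 20 markers of other cell types none had a core region, with CD14 at 14 libraries and COL1A1 at 11 the most and PTPRC, MYH6, RBFOX3, ALB and HBB at 0. Among all 55 keratins, 7 had a core region (12.7%), KRT5, KRT8, KRT15, KRT18, KRT19, KRT75 and KRT80.

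**Figure D3:**
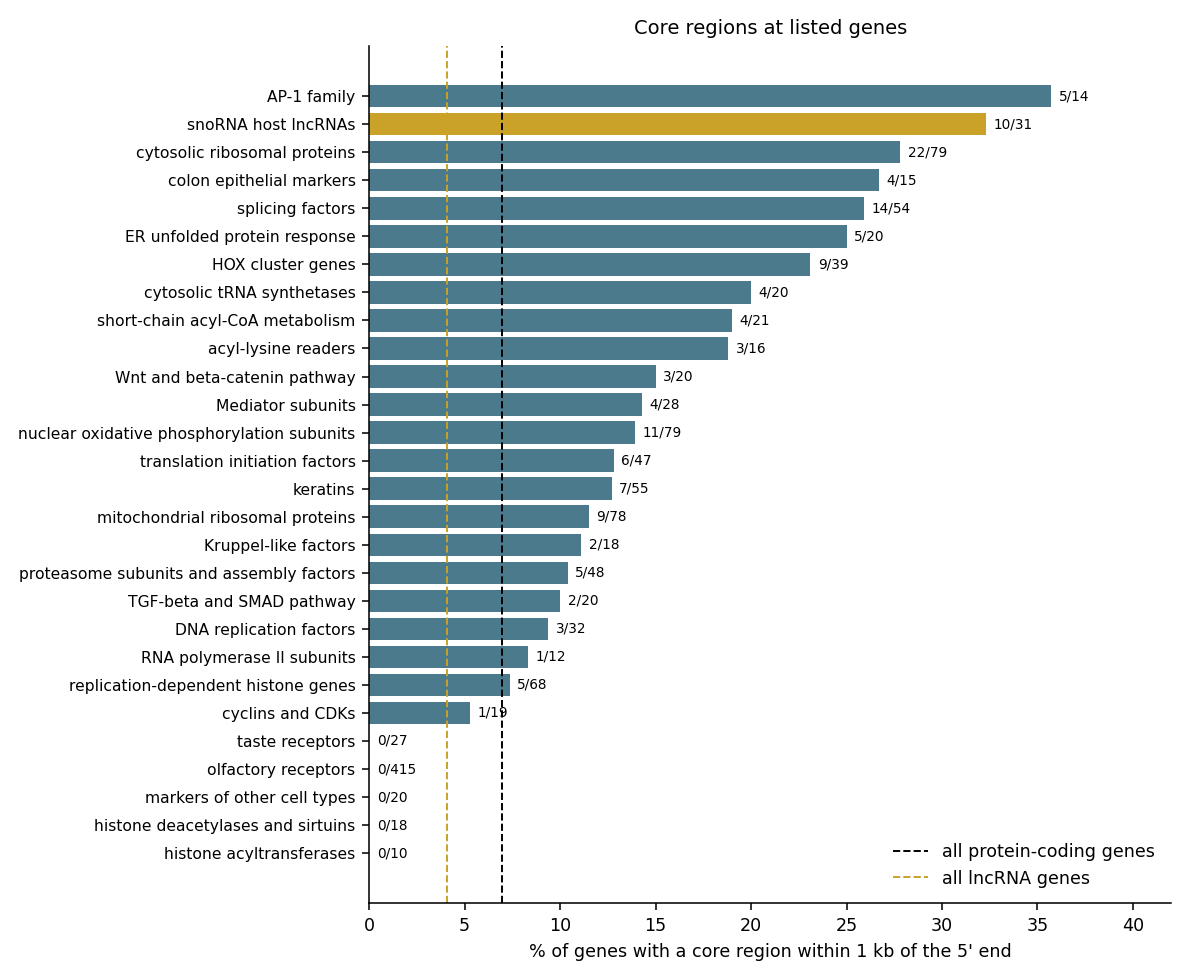
Percentage of the genes of 28 lists that have a core region within 1 kb of the 5′ end, with the number of genes beside each bar (protein-coding lists blue, lncRNA list gold) and the shares over all protein-coding genes (6.94%) and all lncRNA genes (4.07%) as dashed lines. AP-1 genes (5 of 14), snoRNA host lncRNAs (10 of 31) and cytosolic ribosomal proteins (22 of 79) lie highest, and 5 lists are at 0.

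Input peaks met 1553 core regions (50.6%, 95% Wilson interval 48.8% to 52.3%, counting error only), against 5.36% of all union regions. By list, 577 (18.8%) met a peak of the NaPr input, 459 (14.9%) of the NaBu input and 904 (29.4%) of the untreated input. All 3 inputs were met by 31 (1.01%). Over all union regions these shares were 2.58%, 1.06%, 2.00% and 0.0109%. Wider regions met input peaks more often. Among regions 2 to 3 kb wide the share was 38.7% in the core and 32.0% in regions of 10 to 18 libraries, and at 6 to 10 kb 58.6% and 51.7%. In a fixed window of 1 kb at the strongest summit it was 26.9% in the core, 21.8% in regions of 10 to 18 libraries and 8.35% over all union regions. With whole regions and input peaks at q under 0.05 it was 21.7% in the core, 11.9% in regions of 10 to 18 libraries and 1.81% over all union regions. Counting all input peaks, the share was 52.0% at promoter core regions, 50.2% in gene bodies and 47.3% in intergenic ones. All union regions of these classes had 17.2%, 4.64% and 4.98%.

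Input peaks at core regions ranked below the middle of their own lists. Their median percentile of fold within their own list was 37.8 for the NaPr input, 46.4 for the NaBu input and 19.5 for the untreated input, and their median folds were 2.72, 4.01 and 1.75. Of the 1000 strongest peaks of each input, 0.5%, 2.1% and 1.0% lay over a core region, against 0.688%, 1.24% and 3.73% of all peaks of these lists, so that the strongest peaks of the NaBu input lay there more often than its list as a whole. Core regions with an input peak were wider (median 4832 bp against 3904 bp) and their median fold percentile was higher in 19 of 20 libraries, H4K12ac NaBu replicate 2 being the exception. The best ranked of the regions with peaks of all 3 inputs lay at MIR23AHG, where every immunoprecipitated library was at the 99.9 percentile or higher, and others lay at STX10 with IER2, an immediate early gene, at the S100 protein gene S100A10 and in an intergenic stretch of chromosome 1.

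The rule asked for a peak of a library, not for how much of a core region the library covered. The bounds of the regions were still set by these same peaks, since wide peaks of some libraries joined separate peaks of others. Covered length and peaks per region are therefore not independent of the rule. The p-values given below for these measures compare libraries over the selected regions only. The covered length (median over the core regions a library held) was 2848 and 2395 bp in the H3K18pr replicates and 2734 and 2649 bp in H4K12pr. It was 1193 and 1011 bp in H3K18bu and 535 and 444 bp in H4K12bu. Among acetyl libraries it was 2566 and 1833 bp (H3K18ac NaPr), 1072 and 849.5 bp (H4K12ac NaPr), 2159.5 and 2052 bp (H3K18ac NaBu), 1144.5 and 645 bp (H4K12ac NaBu), 2880.5 and 2174 bp (H3K18ac untreated), and 2463.5 and 2285 bp (H4K12ac untreated). Propionyl peaks thus lay among the longest and butyryl peaks, with those of H4K12ac under treatment, among the shortest.

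Acyl and acetyl libraries were compared within the 4 strata of histone site and treatment by a two-sided exact permutation test over libraries (1296 arrangements), adjusted over 12 such results. Covered length did not separate acyl from acetyl over all 4 (mean difference 186 bp, exact p = 0.545, adjusted p = 0.654), and the direction differed between the acyl groups. Without H3K18ac NaPr replicate 1 the difference was 271.6 bp. In NaPr cells propionyl minus acetyl was 422 bp at H3K18, where replicates overlapped, and 1730.75 bp at H4K12, where they did not. In NaBu cells butyryl minus acetyl was -1003.75 bp at H3K18 and -405.25 bp at H4K12, with no overlap at either. The difference between the NaPr and NaBu effects was 1781 bp (exact permutation p = 0.00463, adjusted p = 0.0247 over 8 such differences), and without H3K18ac NaPr replicate 1 it was 1944 bp. In the same exact test it passed when each library was left out in turn, except H4K12bu replicate 2 (1696 bp, adjusted p = 0.0556). NaPr alone gave an exact permutation p = 0.111 and NaBu alone 0.0556, where 0.0556 is the smallest p this design allows. Between the NaPr and NaBu strata, treatment, dose, acyl group and antibody changed together.

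**Figure D4:**
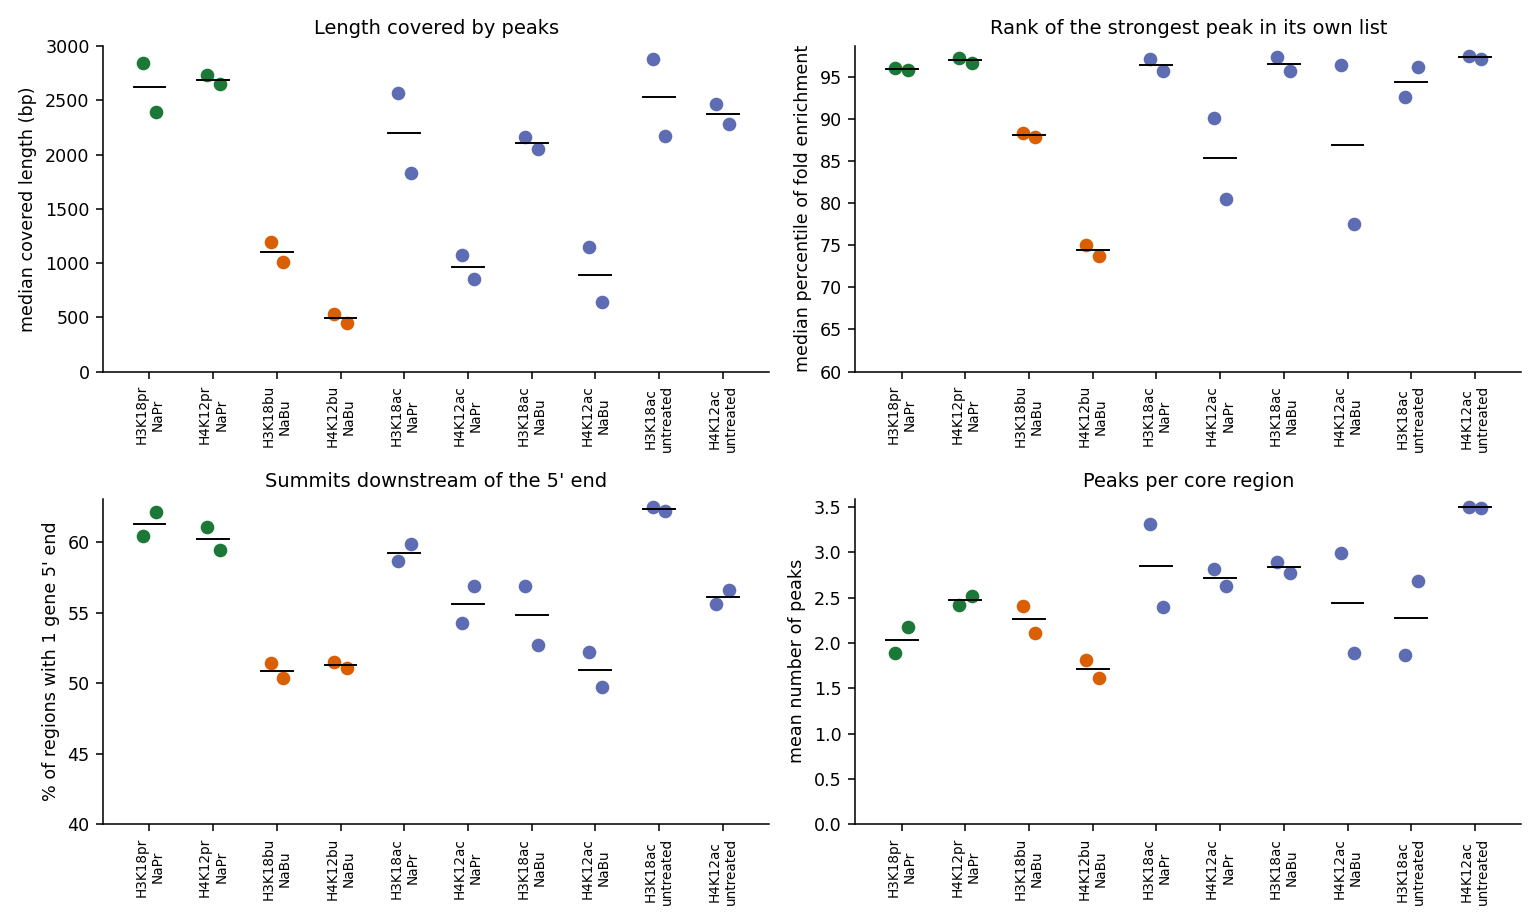
Values of the 20 libraries over core regions (2 points per group with a line at their mean, propionyl green, butyryl orange, acetyl blue): median covered length in bp, median percentile of the strongest peak's fold in its own list, percentage of single-gene promoter regions with the summit downstream of the 5′ end, and mean number of peaks per core region that the library held. Butyryl libraries are low in the covered length (444 to 1193 bp), fold percentile and downstream panels, as are some H4K12ac libraries of treated cells. Propionyl libraries are high in these panels (covered length 2395 to 2848 bp). The axes of the fold percentile and downstream panels do not start at 0.

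Acyl libraries had fewer separate peaks per core region held, but they covered unlike shares of the core bases. The group mean of that share was 63.8% (H3K18pr) and 67.4% (H4K12pr) against 54.1% and 26.3% for acetyl in NaPr cells. In NaBu cells it was 26.4% (H3K18bu) and 11.7% (H4K12bu) against 50.8% and 21.3%. A lower count of peaks thus went with more cover in propionyl and with less cover in butyryl libraries. The mean number of separate peaks per core region was taken over the core regions that a library held. This mean was 1.888 and 2.171 in H3K18pr against 3.32 and 2.39 in H3K18ac NaPr, and 2.42 and 2.52 in H4K12pr against 2.82 and 2.63 in H4K12ac NaPr. In NaBu cells it was 2.41 and 2.12 in H3K18bu against 2.90 and 2.77 in H3K18ac, and 1.81 and 1.61 in H4K12bu against 3.00 and 1.89 in H4K12ac. Acyl libraries were lower than acetyl libraries in all 4 strata without overlap (mean difference -0.596, exact permutation p = 0.00154, the smallest this design allows, adjusted p = 0.0185). In the same exact test the call was lost without H4K12bu replicate 1 (-0.598, adjusted p = 0.0617) or replicate 2 (-0.551, 0.0802), and when each list was cut to its 8158 strongest peaks the difference was -0.0426 (adjusted p = 0.848). It was also lost with 200 bp summit windows (-0.0142, exact permutation, adjusted p = 0.161). Lists of NaPr acetyl libraries were 95194 to 202787 peaks long and those of butyryl libraries 8158 to 22497, and the part of list length in this difference was not tested beyond that.

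H3K18 libraries covered more of the core regions than H4K12 libraries, by 629 bp over 5 strata of acyl group and treatment (2111 against 1482 bp, exact permutation over 7776 arrangements, p = 0.00463, adjusted p = 0.0226). The difference was 1211 bp for acetylation in NaBu cells, 1239 bp for acetylation in NaPr cells, 612.5 bp for butyrylation, 153 bp for acetylation in untreated cells and -70 bp for propionylation. Libraries of the first 3 did not overlap between the sites, and those of the last 2 did. The value stayed between 554.6 and 695 bp when each library was left out, with an adjusted p of at most 0.0494 in the same exact permutation test. Region bounds were set by these same peaks, so the result holds for the selected regions only.

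For H4K12ac, treated minus untreated covered length was -1413.5 bp in NaPr and -1479.5 bp in NaBu, with replicates that did not overlap. For H3K18ac the differences were -327.75 bp in NaPr, where replicates overlapped, and -421.5 bp in NaBu, where they did not. Over both sites the mean difference was -870.6 bp in NaPr (exact permutation p = 0.111, adjusted p = 0.222) and -950.5 bp in NaBu (0.0556, adjusted 0.133). Without H3K18ac NaPr replicate 1 the NaPr value was -1044 bp. Both comparisons used the same untreated libraries, and the smallest p that 36 arrangements allow is 0.0556.

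The rank of core regions in a list is limited where they make up much of that list. They held 54.3% and 50.9% of all peaks of the H4K12bu replicates but 4.47% to 6.89% in propionyl lists. Median percentiles of fold were 95.7 to 97.2 in the 4 propionyl libraries, 87.8 and 88.3 in H3K18bu, and 75.1 and 73.7 in H4K12bu. The share of the list did not order all libraries, since H4K12ac NaPr replicate 2 had 5.89% of its peaks in the core and a percentile of 80.5. Acyl and acetyl libraries did not differ in this percentile over the 4 strata beyond the spread (mean difference -2.46, exact permutation p = 0.522, adjusted p = 0.654), and with equal list lengths the difference was 3.84. H3K18 minus H4K12 was 6.06 (exact permutation p = 0.0394, adjusted p = 0.118), and treated minus untreated acetyl libraries gave -4.97 in NaPr and -4.09 in NaBu (adjusted p = 0.476 and 0.722).

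Summits of the strongest peak were placed against the 5′ end in the 770 core regions with a single gene. They lay downstream of it in 60.5% and 62.2% of regions for H3K18pr and 61.1% and 59.4% for H4K12pr, but in 51.4% and 50.3% in the H3K18bu replicates and 51.5% and 51.1% in those of H4K12bu. The acetyl libraries ranged from 49.7% (H4K12ac NaBu replicate 2) to 62.5% (H3K18ac untreated replicate 1). In NaBu cells acetyl libraries had 56.9% and 52.7% (H3K18ac) and 52.2% and 49.7% (H4K12ac). Shares near those of butyryl libraries were thus also found in acetyl libraries of NaBu cells. Over all strata acyl minus acetyl was 0.775 percentage points (exact permutation p = 0.514, adjusted p = 0.654), 3.34 points in NaPr and -1.79 in NaBu. H3K18 summits lay downstream more often than H4K12 summits, by 2.88 points (57.7% against 54.8%, exact permutation p = 0.00566, adjusted p = 0.0226). In that exact test this call was lost without H3K18ac NaBu replicate 1 (2.34 points, adjusted p = 0.0720) or H4K12ac NaBu replicate 2 (2.36, 0.0977), and with core regions free of input peaks (2.355, 0.0545). It was lost as well with peaks at q under 0.05 (1.565, exact permutation, adjusted p = 0.150), with equal list lengths (2.077, 0.138) and with summit windows (0.8256, 0.191).

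Around the 5′ ends of the same 770 regions, peaks were followed as the share of regions with a peak at points 100 bp apart. In H4K12ac of untreated cells the share was 71.56% and 71.69% in the replicates 300 bp upstream, 50.26% and 48.96% 100 bp upstream, 48.96% and 51.95% at the 5′ end and 74.29% and 73.51% 300 bp downstream. In H3K18pr it was 70.65% and 59.74%, 68.44% and 53.90%, 71.30% and 59.22%, and 80.13% and 71.43% at these points, so that the local dip lay upstream of the 5′ end and was shallower. In H4K12pr the shares were 67.27% and 64.42%, 56.62% and 53.77%, 62.08% and 55.97%, and 76.62% and 73.12%. Butyryl libraries had their local minimum at the 5′ end, with 22.08% and 16.88% for H3K18bu and 13.64% and 9.48% for H4K12bu. At 500 bp all 4 butyryl libraries had a higher share upstream than downstream (group means 35.5% against 26.1% for H3K18bu, 22.7% against 15.5% for H4K12bu). At 1000 bp the order was the opposite in all 4 (16.0% against 21.3% and 6.88% against 8.83%), so the lean depended on the distance. The pattern was not particular to butyryl libraries. Both H4K12ac NaBu libraries also had their local minimum at the 5′ end, with 26.23% and 17.14%. Their group means were 36.7% upstream against 29.8% downstream at 500 bp, and 14.9% against 19.3% at 1000 bp. Propionyl libraries had the higher share downstream at both distances.

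**Figure D5:**
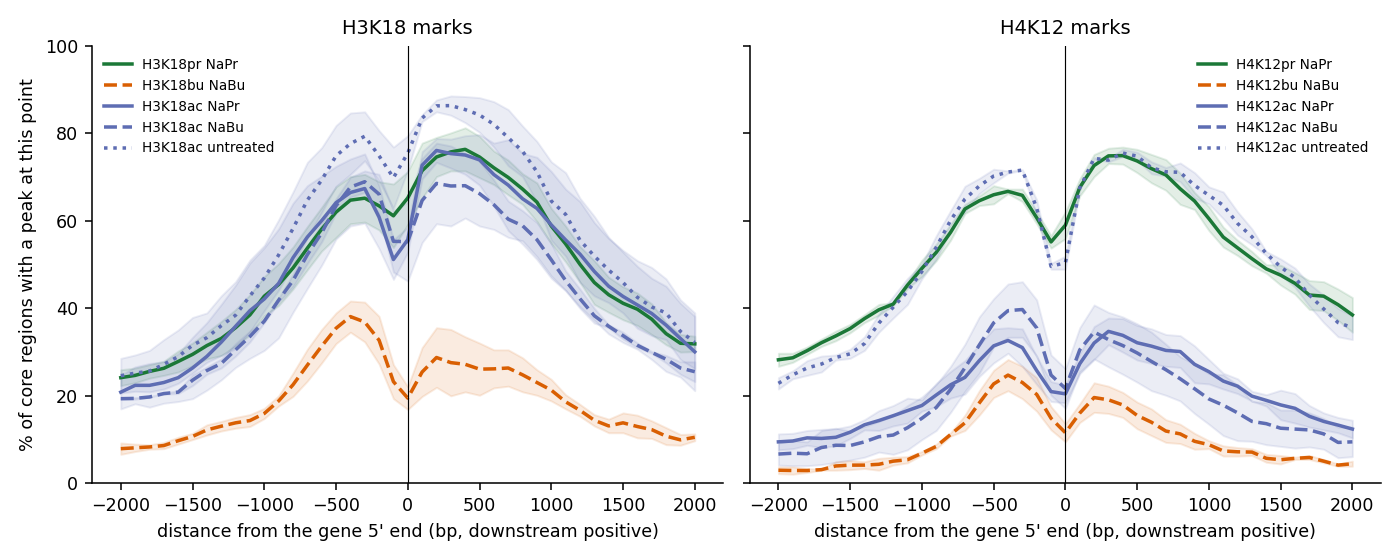
Percentage of the 770 core regions at a single gene that have a peak at each distance from the 5′ end (bp in steps of 100, downstream positive), for H3K18 marks (left) and H4K12 marks (right). Lines are means of 2 replicates and shading spans them; colours are propionyl (green), butyryl (orange) and acetyl (blue), and line styles are NaPr (solid), NaBu (dashed) and untreated (dotted). A local dip lies at or just upstream of the 5′ end. Butyryl lines and that of H4K12ac NaBu are higher upstream at 500 bp but higher downstream at 1000 bp.

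Single core regions that set acyl apart from acetyl in every stratum were rare. Of the 1878 core regions with a peak in every library of the 4 strata, 1 had acyl peaks longer than acetyl peaks without overlap in each of the 4 strata (0.0532%) and 2 had them shorter (0.106%). The first lay on chromosome 8 within the lncRNA genes PCAT1 and CASC8. Its peaks covered 6465 and 6502 bp for H3K18pr against 2886 and 5234 bp for H3K18ac NaPr, and 5436 and 6088 bp for H4K12pr against 2895 and 2685 bp for H4K12ac NaPr. For H3K18bu they covered 3691 and 4954 bp against 2908 and 3259 bp for H3K18ac NaBu, and for H4K12bu 1219 and 1724 bp against 1179 and 542 bp for H4K12ac NaBu. The last of these differed little, with 1219 against 1179 bp at the closest. By fold, the strongest peak of this region ranked low in some lists. Its lowest percentile was 0.68, and it stood at 23.9 and 49.6 in the H4K12bu replicates. The region met a peak of 1 input.

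The opposite pattern was found at NR6A1, an orphan nuclear receptor gene (chr9:124768762-124772813), and at ARF4, a GTPase of vesicle transport (chr3:57590162-57597460). At NR6A1, H3K18pr covered 402 and 1106 bp against 2879 and 1213 bp for H3K18ac NaPr, and H4K12pr 462 and 340 bp against 720 and 482 bp for H4K12ac NaPr. H3K18bu covered 707 and 546 bp against 1836 and 1443 bp, and H4K12bu 193 and 220 bp against 362 and 257 bp for the acetyl libraries of NaBu cells. At ARF4 the closest values were those of H3K18pr replicate 1 (3388 bp) and H3K18ac NaPr replicate 1 (3463 bp). The mean log2 ratio of acyl to acetyl length was -0.999 at NR6A1, -0.94 at ARF4 and 0.75 at PCAT1. These 3 regions were found by searching all 1878 and are given as values. Full separation in either direction makes up a share of 0.00154 of the 1296 arrangements of the exact permutation test. The shares of regions found, 0.0532% and 0.106%, were of that order, so no region is called.

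Across core regions, covered lengths of replicates ranked alike, with a median Spearman's rho of 0.856 over 10 pairs (0.626 to 0.941). The median was 0.761 between H3K18 and H4K12 of the same acyl group and treatment (20 pairs), 0.649 between acyl and acetyl at the same site and treatment (16 pairs) and 0.610 between treatments of the same acetyl mark (24 pairs). The points are core regions and share their library, depth and width, so these values are descriptions.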

How the data were processed

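ChIP-seq peak lists of 20 immunoprecipitated and 3 input libraries were used. Per the submitters' processing notes, reads were handled with bcl2fastq 2.17.1, cutadapt 1.8.1, Bowtie2 2.3.1 and MACS2 2.1.0. The authors deposited each list with a fold enrichment (a ratio of pileup to local background) and -log10 p and q values per peak, called per library at p under 0.01 on hg38. The control behind the input lists is not given in the sources used here. Lists hold no read depth. Peaks were merged with 1 bp overlap, and genes were taken from GENCODE 44. Libraries were compared by exact permutation within strata, two-sided, with Benjamini-Hochberg adjustment over 12 results (8 for differences between effects), in Python 3.11.15 with NumPy 2.4.6, pandas 2.3.3 and SciPy 1.17.1. The test code was tested on simulated data. Alternatives were peaks at q under 0.05, equal list lengths, other recurrence, 200 bp summit windows, other promoter windows, single inputs, and each library left out. Regions and genes were named by rules: highest lowest percentile at promoters without input and elsewhere, extreme width, acyl and acetyl apart in all strata, and peaks of all 3 inputs. Members, lists and rules were chosen with earlier results of these data known. RefSeq promoters matched 76.4% of genes without a core region, under the share needed for a comparison, so GENCODE windows were used for motif shares. Results for some genes are not reported here.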

Additional observations from a re-analysis of the deposited data

Results flagged for a closer look

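The difference between acyl and acetyl libraries was not the same in NaPr and NaBu cells for 3 of the 4 measures, as tested by exact permutation (two-sided) on the difference of effects and adjusted over 8. For covered length the NaPr effect minus the NaBu effect was 1780.875 bp (exact permutation p = 0.00463, adjusted p = 0.0247). For the fold percentile it was 16.0331 points (exact permutation p = 0.00617, adjusted p = 0.0247), with 5.556 in NaPr and -10.5 in NaBu. In the same exact test this call was lost without H4K12pr replicate 1 (15.85, adjusted p = 0.0700), H4K12pr replicate 2 (16.29, 0.0576), H4K12bu replicate 1 (17.95, 0.152) or H4K12bu replicate 2 (18.91, 0.119). For the downstream share of summits it was 5.1361 points (exact permutation p = 0.0139, adjusted p = 0.0370), and the call was lost when any of 10 libraries was left out, among them H3K18ac NaBu replicate 1 (4.074 points, adjusted p = 0.0658). Propionyl and acetyl libraries of NaPr cells came from different run tags, and butyryl lists were the shortest, so these differences cannot be told apart from run tag. The NaPr strata held propionyl at 10 mM and the NaBu strata butyryl at 1 mM. Treatment, dose, acyl group and antibody thus changed together and cannot be told apart either. With equal list lengths the covered length kept its call (2149 bp, exact permutation, adjusted p = 0.0123), while the calls for fold percentile (8.408, adjusted p = 0.141) and downstream share (3.835, 0.132) were lost and that for peaks per region, not called before, was -0.6749 (0.0123).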

How the results depend on the processing

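The number of core regions was 1066 with peaks at q under 0.05, 862 with equal numbers of strongest peaks, 1862 in 20 of 20 libraries and 1078 with 200 bp summit windows, and 3056 to 3839 with 1 library left out. The promoter share was 47.19%, 52.09% and 40.91% with q, equal numbers and summit windows, 47.36% within 2 kb, 35.32% with protein-coding genes only, and 44.41% to 47.32% with 1 library left out. The input share was 52.72%, 55.57% and 20.69% in the first 3 of these, 52.47% in 20 of 20, 48.34% in at least 18, 18.78%, 14.94% and 29.43% with the NaPr, NaBu and untreated input alone, and 21.74% with input peaks at q under 0.05.

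With equal numbers, acyl minus acetyl was 3.841 for fold percentile, -0.005772 for downstream share and -0.04256 for peaks per region, whose call was lost. H3K18 minus H4K12 was then 2.077 for downstream share (call lost) and -0.3749 for peaks per region (exact permutation, adjusted p = 0.00309). Treated minus untreated fold percentile was 0.1417 in NaPr and 8.714 in NaBu. The NaPr minus NaBu effects were 8.408 (fold percentile) and 3.835 (downstream share), both calls lost, and -0.6749 (peaks per region, now called). With q under 0.05, H3K18 minus H4K12 downstream share was 1.565 (call lost). With summit windows, acyl minus acetyl peaks per region was -0.01419 (call lost), H3K18 minus H4K12 was 0.8256 (downstream share, call lost) and -0.01445 (peaks per region, now called), and the NaPr minus NaBu effect on peaks per region was -0.02011. With at least 18 libraries, acyl minus acetyl downstream share was -0.1962. Without input regions, downstream share was 2.355 for H3K18 minus H4K12 and 3.446 for the NaPr minus NaBu effect. In NaPr alone, acyl minus acetyl was 5.556 for fold percentile and -0.5388 for peaks per region. In NaBu alone it was -704.5 bp, -1.793 for downstream share and -0.6538 for peaks per region. The cause was not tested in any of these.

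With 1 library left out, acyl minus acetyl peaks per region was -0.726 to -0.4564, H3K18 minus H4K12 was 4.427 to 8.052 for fold percentile (exact permutation, adjusted p = 0.0409 without H4K12ac NaBu replicate 1) and 2.338 to 3.407 for downstream share, and NaBu minus untreated fold percentile was -8.983 to 0.3213 (without H4K12ac NaBu replicate 2). The NaPr minus NaBu effects were 1579 to 1944 bp, 11.34 to 22.72 (fold percentile), 4.074 to 6.171 (downstream share) and -0.1643 to 0.4068 (peaks per region), where -0.1222 was the value without H3K18ac NaPr replicate 2. These alternatives of the effects were chosen after seeing the data.

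Replicate numbers did not pair the libraries: 7 of 45 pairs of groups had correlated deviations over 0.1 (-0.126 to 0.235). With the replicate block, acyl minus acetyl peaks per region was -0.5963, H3K18 minus H4K12 covered length 629 bp and downstream share 2.878, each with an adjusted p of 0.0625.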
